A study of Mus musculus with 18 samples.

Results

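The 8 genes described here code for the makers, movers and removers of acetylcholine and for 4 of its muscarinic receptors: *Chat*, *Slc18a3*, *Slc5a7*, *Ache*, *Chrm1*, *Chrm2*, *Chrm3* and *Chrm4*. They were chosen by name, by a rule that uses no measured value though earlier results of these data were known, and each symbol was matched through the mouse GENCODE M21 annotation to 1 identifier of the gene count table, which holds 53468 genes. The table covers poly(A)-selected RNA of 3 brain parts, dissected at postnatal day 25: forebrain, midbrain and hindbrain. There were 3 Fmr1CRE knock-in mice, which carry a single-base change made by genome editing in a cis-regulatory element assigned to *Fmr1*, and 3 wild-type litter mates, all on a C57BL/6 background. Each mouse gave 1 library per region, so that the 18 libraries form 6 groups of 3. The study made several independent Fmr1CRE lines, and the labels do not say which line these mice came from.

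Cholinergic neurons make acetylcholine with choline acetyltransferase (*Chat*), load it into synaptic vesicles with the vesicular acetylcholine transporter (*Slc18a3*) and recover choline at the terminal with the high-affinity choline transporter (*Slc5a7*). Acetylcholinesterase (*Ache*) ends the signal in the synaptic cleft, and is also made by neurons that are not cholinergic. The cell bodies that express *Chat* are few. They lie, among other sites, in the basal forebrain and striatum, in pontine and midbrain tegmental nuclei and in cranial motor nuclei. Muscarinic receptors are found on many more neurons, where *Chrm1* and *Chrm3* couple to Gq proteins and phospholipase C, and *Chrm2* and *Chrm4* couple to Gi and Go proteins, which lower cyclic AMP and open potassium channels. In tissue of this kind fewer cells of a type and less RNA per cell cannot be told apart.

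The libraries held 22455512 to 28061185 counts. The regions differed in the marker genes of their parts, with cortex and hippocampus markers (7 of 7 detected in every region) summing to 1012 to 1292 CPM (counts scaled to a common library size) in forebrain, 603.7 to 1156 in midbrain and 124.2 to 230.3 in hindbrain. Striatal projection neuron markers (7 of 7 detected) summed to 601.9 to 1604, 156.6 to 478.2 and 107.0 to 148.3 CPM, and midbrain markers (7 of 7) to 1.07 to 18.5, 48.9 to 107.0 and 6.53 to 20.4 CPM. Hindbrain and cerebellum markers summed to 0.572 to 8.03 CPM in forebrain, where *Hoxc4* was at 0 in all 6 libraries and the other 7 were detected, and to 81.6 to 212.0 in midbrain and 469.5 to 716.2 in hindbrain. The midbrain libraries thus held cortex and hippocampus markers at a level close to that of forebrain. The forebrain library of Fmr1CRE replicate 1 had the lowest sums of striatal (601.9 CPM), cortical (1012 CPM) and astrocyte markers (2887 CPM) and the highest sum of blood markers (1547 CPM) of the 6 forebrain libraries. *Fmr1*, the gene to which the edited element is assigned, was at 77.7 ± 7.53 CPM in wild-type and 75.8 ± 2.57 in Fmr1CRE forebrain, at 67.7 ± 6.24 and 68.1 ± 2.02 in midbrain and at 58.2 ± 10.1 and 64.7 ± 1.36 in hindbrain (SD, n = 3). The edit does not remove the gene, so these levels do not check the genotype labels.

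The link between libraries and mice was less certain than the region labels. Among autosomal genes that differed between Fmr1CRE replicate 3 and wild-type replicate 3 by over 1.5 on the log2 scale, with 1 sign in both midbrain and hindbrain, 20 of 29 differed in the opposite direction in forebrain, against 24 of 42 for the mice numbered 2 and 16 of 34 for those numbered 1. Of genes chosen for the mice numbered 3 in forebrain and hindbrain, 13 of 21 differed in the opposite direction in midbrain. For the mice numbered 1 and 2 this held for 8 of 24 and 12 of 31. Of genes chosen in forebrain and midbrain, 6 of 16 did so in hindbrain for the mice numbered 3. The mice numbered 1 and 2 gave 17 of 35 and 9 of 28 there. Whether the forebrain libraries of the 2 mice numbered 3 were exchanged was not settled by these counts. An exchange would alter the forebrain genotype values and the test of whether the genotype difference differs between regions. It would also break the pairing of regions within these mice. Labels were kept as given, and results were recomputed without both mice numbered 3. The transcript estimates filed with each library matched the gene counts of that library in 2 of 18 cases, while each set matched exactly 1 of the 18 count columns to within 0.18% and the next closest differed by at least 9.24%. Sets were therefore joined to count columns by content.

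All 8 genes are protein-coding, and their positions are given on GRCm38 (mm10). *Chat* (ENSMUSG00000021919) lies on the minus strand at chr14:32408203-32465989, and the single-exon *Slc18a3* (ENSMUSG00000100241, chr14:32462438-32464850) lies on the same strand within an intron of *Chat*, with 0 exon bases shared. *Slc5a7* (ENSMUSG00000023945) is at chr17:54273590-54299034 on the minus strand and *Ache* (ENSMUSG00000023328) at chr5:137287519-137294466 on the plus strand. The receptor genes are *Chrm1* (ENSMUSG00000032773, chr19:8663789-8683587, plus), *Chrm2* (ENSMUSG00000045613, chr6:36388084-36528414, plus), *Chrm3* (ENSMUSG00000046159, chr13:9875486-10360847, minus) and *Chrm4* (ENSMUSG00000040495, chr2:91927249-91928688, plus). The *Chrm4* model is a single exon of 1440 bases, and the RefSeq start of this gene lies 5060 bases upstream of it. *Ache* shares 98 exon bases with the lincRNA *Gm42456* and *Chrm2* shares 142 with *9330158H04Rik*, both on the opposite strand. The use of strand in counting is not given in the sources used here, and these partners held 88 and 726 counts over all libraries.

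The upstream sequences below show how unlike the start regions of the presynaptic genes and of *Chrm4* are in base composition. They come from RefSeq (GRCm38.p6), which matched 7 of the 8 genes, all but *Chrm1*. They run 5′ to 3′ on the gene's strand, cover up to 250 bases before the start and leave out bases within annotated exons. Capitals mark matches on either strand to an E-box (CANNTG), a GC box (GGGCGG) or a CCAAT box (CCAAT). *Chat* is shown at chr14:32465990-32466159, *Slc18a3* at chr14:32464851-32465100, *Slc5a7* at chr17:54299035-54299284 and *Chrm4* at chr2:91921939-91922188.
Chat: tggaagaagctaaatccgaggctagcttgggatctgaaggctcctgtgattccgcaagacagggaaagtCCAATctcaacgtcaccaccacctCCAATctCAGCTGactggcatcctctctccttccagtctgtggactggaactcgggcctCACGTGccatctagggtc
Slc18a3: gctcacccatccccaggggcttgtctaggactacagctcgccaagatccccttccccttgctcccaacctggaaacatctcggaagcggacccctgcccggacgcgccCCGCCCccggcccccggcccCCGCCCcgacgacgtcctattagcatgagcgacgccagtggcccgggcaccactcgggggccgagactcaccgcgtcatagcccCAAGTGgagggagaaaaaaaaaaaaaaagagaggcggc
Slc5a7: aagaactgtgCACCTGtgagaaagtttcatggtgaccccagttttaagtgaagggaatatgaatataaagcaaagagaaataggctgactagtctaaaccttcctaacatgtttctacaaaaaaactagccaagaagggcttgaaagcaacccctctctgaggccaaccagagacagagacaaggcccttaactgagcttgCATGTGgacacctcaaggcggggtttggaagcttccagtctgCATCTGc
Chrm4: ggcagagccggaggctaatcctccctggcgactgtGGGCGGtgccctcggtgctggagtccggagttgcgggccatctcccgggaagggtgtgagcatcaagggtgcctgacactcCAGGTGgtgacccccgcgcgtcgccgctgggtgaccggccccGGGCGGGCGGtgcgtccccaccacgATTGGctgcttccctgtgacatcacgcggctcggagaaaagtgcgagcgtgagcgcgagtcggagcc

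The *Slc18a3* and *Chrm4* windows were rich in G and C, at 66.0% and 70.0%, with 21 and 26 CpG and with 2 and 3 GC boxes. The *Slc5a7* window held 45.6% G and C, 1 CpG and 0 GC boxes, and the *Chat* window 54.7%, 5 CpG and 0 GC boxes. E-boxes numbered 2 in *Chat*, 1 in *Slc18a3*, 3 in *Slc5a7* and 1 in *Chrm4*. Among 27025 RefSeq windows of 250 upstream bases, 66.0% held an E-box, 32.9% a GC box and 34.5% a CCAAT box. The windows of 6 genes could be searched, as *Ache* had 0 bases left outside exons. The letters TTCAGCACC, a part of the RE1 element bound by the repressor REST, were in 0 of them and in 0.285% of all windows. GGACAG, the other part, was in the *Chrm2* window alone, against 18.7% of all windows, and the homeodomain core TAATTA was in 0, against 4.9%. The windows trimmed at exons were shorter than those counted for these shares.

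The scale of the *Chat* values depends on a short transcript model. The deposited gene counts equal the summed abundance of a gene's transcripts times its mean effective length, scaled to the library total, so that a read on a very short model counts for more. Chat-202 is annotated with 220 bases and 3 exons, and salmon gave it an effective length of 12.6 to 14.6 bases, against 2858 bases and 16 exons for Chat-201. Their first junctions are shown because they tell the models apart, with 15 bases of exon 1 in lower case and 15 bases of exon 2 in capitals, and each 30-base window occurs in 1 annotated transcript only.
Chat-202: cctcccggaaggaagGTCGGCAGCTCTGCT
Chat-201: gcttccacgccacttTCAGTCAGTCGGGGC

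The Chat-202 junction joins chr14:32465886-32465957 to chr14:32458608-32458711 and the Chat-201 junction joins chr14:32465807-32465957 to chr14:32460725-32460913. Of the 190 sequences of 31 bases in Chat-202, 26 occur in no other transcript. In 8 of the 18 libraries 1.0 to 3.0 reads were assigned to Chat-202. These made up 0.88% to 2.83% of the reads on *Chat* and 63.9% to 85.5% of its abundance, and the deposited count was 1.74 to 4.27 times the number of reads. In the other 10 libraries it was 0.63 to 0.85 times that number. The 8 libraries were 3 of forebrain, 1 of midbrain and 4 of hindbrain, of which 3 were all the Fmr1CRE hindbrain libraries and 1 was wild-type. *Chat* is therefore given on both scales, as deposited counts and as salmon's reads summed per gene. For the other 7 genes the ratio of count to reads lay between 0.72 and 1.32. *Ache* also has short models. Ache-203, Ache-204 and Ache-205, of 360, 262 and 254 bases, held medians of 7.22%, 9.82% and 21.8% of its abundance. The pooled effective length of *Ache* was 1660.5 bases, against an annotated 2186 bases for Ache-201. The part of these models in the deposited *Ache* values and in its level per kilobase was not tested.

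**Figure D1:**
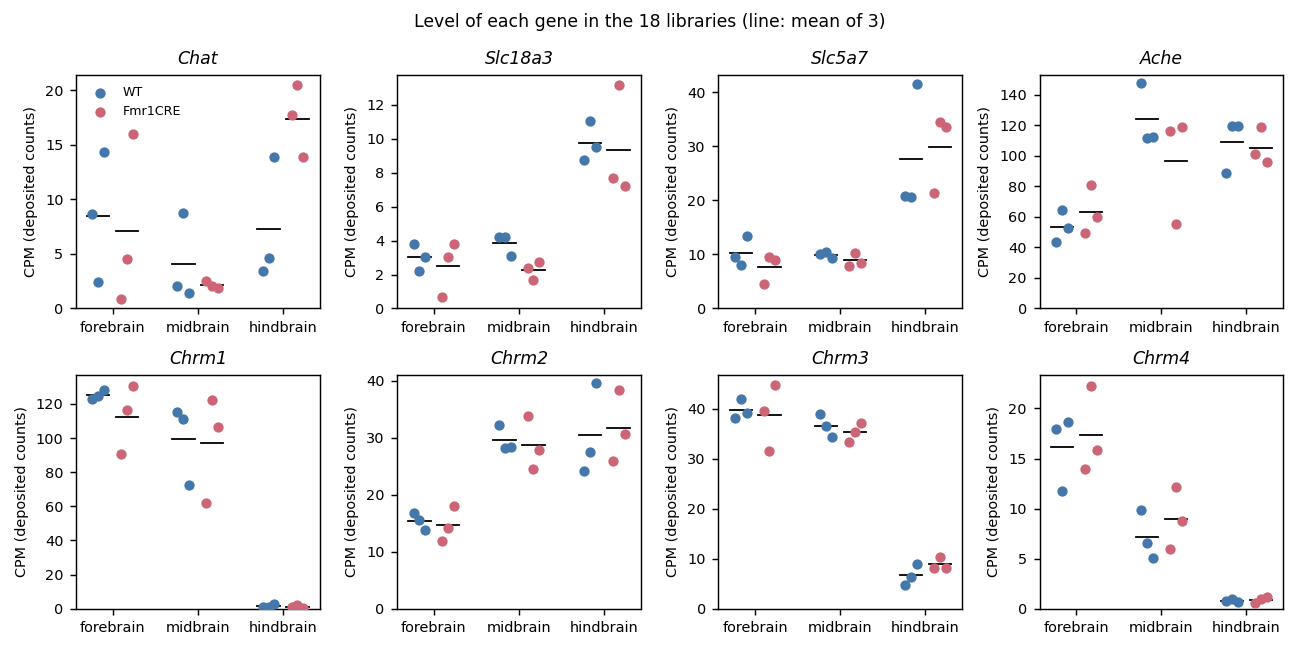
CPM from the deposited counts (vertical axis, starting at 0) of the 8 genes in forebrain, midbrain and hindbrain, with 1 point per library, wild-type (WT) in blue and Fmr1CRE in red, and a line at the mean of each 3. *Chrm1*, *Chrm3* and *Chrm4* are lowest in hindbrain, at up to 2.65, 10.4 and 1.14 CPM, and *Slc18a3* and *Slc5a7* are highest there, at 7.20 CPM or more and 20.5 CPM or more.

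Regions were compared over all 18 libraries with edgeR's quasi-likelihood test, and p-values were adjusted by the Benjamini-Hochberg method over 20363 genes. A gene is said to rise or fall at an adjusted p under 0.05. The vesicular and choline transporters were both higher in hindbrain than in either other region. *Slc18a3* ran from 0.671 through a median of 3.05 to 3.83 CPM in forebrain, from 1.71 through 2.94 to 4.23 in midbrain and from 7.20 through 9.14 to 13.2 in hindbrain. All 6 hindbrain libraries lay above all 12 others. The mean level was 2.77 ± 1.19 CPM in forebrain, 3.06 ± 1.01 in midbrain and 9.56 ± 2.23 in hindbrain (SD, n = 6). Hindbrain was 3.47-fold above forebrain (log2 fold change of forebrain against hindbrain -1.80, SE 0.30, adjusted p = 9.47e-05) and 3.23-fold above midbrain (-1.69, SE 0.29, adjusted p = 0.000203). Forebrain and midbrain differed by -0.11 (SE 0.30, adjusted p = 0.851), with a 95% confidence interval of -0.74 to 0.53.

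*Slc5a7* ran from 4.58 through a median of 9.23 to 13.4 CPM in forebrain, from 7.86 through 9.75 to 10.4 in midbrain and from 20.5 through 27.5 to 41.4 in hindbrain. Its means were 8.99 ± 2.84, 9.42 ± 1.06 and 28.7 ± 8.94 CPM (SD, n = 6), and again no hindbrain library overlapped the others. The log2 fold change was -1.69 (SE 0.22, adjusted p = 7.46e-06) for forebrain against hindbrain and -1.61 (SE 0.22, adjusted p = 1.78e-05) for midbrain against hindbrain. Forebrain against midbrain gave -0.08 (adjusted p = 0.842, 95% confidence interval -0.54 to 0.38). A median of 58.9% of the *Slc5a7* abundance was assigned to Slc5a7-202, a retained-intron model of 2 exons that lies within the bounds of the coding model, and whether its reads are intronic was not tested.

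*Chat* was spread more widely between libraries of 1 region than either transporter on the deposited scale, and no more widely than *Slc18a3* in forebrain and midbrain with reads. On the deposited scale it ran from 0.829 through a median of 6.62 to 16.0 CPM in forebrain, from 1.44 through 2.07 to 8.73 in midbrain and from 3.41 through 13.9 to 20.5 in hindbrain, and all 3 ranges overlapped. On the read scale it ran from 1.37 through 3.89 to 5.44 in forebrain, from 2.33 through 3.12 to 4.24 in midbrain and from 5.10 through 6.78 to 9.92 in hindbrain. On that scale every hindbrain library lay above every midbrain library, and the lowest hindbrain library lay below the highest forebrain library. The largest forebrain level was 19.3 times the smallest on the deposited scale and 3.97 times on the read scale, against 5.71 and 5.83 times for *Slc18a3*.

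The test of *Chat* followed the scale. Forebrain against hindbrain gave -0.53 (SE 0.60, adjusted p = 0.483) from deposited counts and -0.88 (SE 0.24, adjusted p = 0.00528) from summed reads. Midbrain against hindbrain gave -1.92 (SE 0.63, adjusted p = 0.0195) and -1.14 (SE 0.25, adjusted p = 0.000884). The deposited-count call was lost when Fmr1CRE replicate 2 (adjusted p = 0.0781), wild-type replicate 1 (0.0561), wild-type replicate 3 (0.118) or both mice numbered 3 (0.0953) were left out, in wild-type mice alone (0.472) and with no filter on low counts (0.069). Forebrain against midbrain gave 1.39 (SE 0.63, adjusted p = 0.135) from deposited counts and 0.26 (SE 0.25, adjusted p = 0.473) from reads, and without wild-type replicate 2 the former reached 2.21 (adjusted p = 0.0355).

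**Figure D2:**
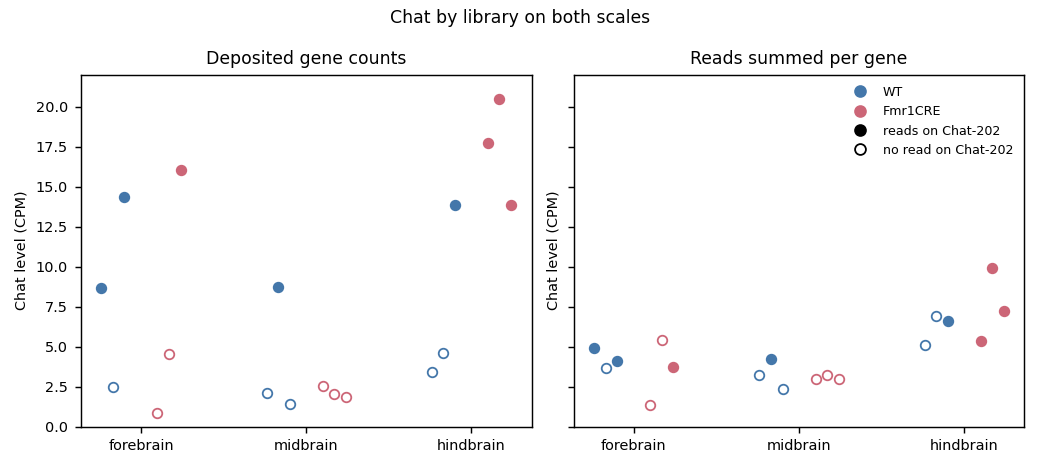
*Chat* in CPM (vertical axis) in each library by region, from deposited gene counts on the left and from reads summed per gene on the right, with wild-type (WT) in blue and Fmr1CRE in red. Filled points are the 8 libraries with reads on Chat-202, which lie at 8.67 CPM or more on the left, while the open points lie at 4.59 CPM or less there.

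The ratio of *Chat* to *Slc18a3*, a pair transcribed from 1 locus, ran by library from 1.11 to 4.69 in forebrain, 0.462 to 2.08 in midbrain and 0.39 to 2.31 in hindbrain on the deposited scale. With reads it ran from 0.957 to 2.06 in forebrain, 0.72 to 1.83 in midbrain and 0.603 to 0.906 in hindbrain, so that the hindbrain libraries were the narrowest and lay below all forebrain libraries. Over the 18 libraries, which share regions and mice, Pearson's r of log2 CPM between *Chat* and *Slc18a3* was 0.674 with deposited counts and 0.889 with reads, and between *Slc18a3* and *Slc5a7* 0.888 and 0.941.

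Acetylcholinesterase mRNA was lower in forebrain than in the other regions. *Ache* ran from 43.5 through a median of 56.2 to 81.2 CPM in forebrain, from 55.6 through 114.3 to 148.0 in midbrain and from 88.8 through 109.9 to 119.8 in hindbrain. The means were 58.4 ± 13.4, 110.4 ± 30.1 and 107.3 ± 13.7 CPM (SD, n = 6). Forebrain and hindbrain libraries did not overlap, and on the deposited scale the midbrain range reached into that of forebrain through Fmr1CRE replicate 2, at 55.6 CPM. On the read scale midbrain and forebrain did not overlap, with a lowest midbrain level of 76.2 CPM and a highest forebrain level of 65.1 CPM. Forebrain was 1.84-fold below hindbrain (log2 fold change -0.88, SE 0.18, adjusted p = 0.000634) and 1.88-fold below midbrain (-0.91, SE 0.18, adjusted p = 0.00214), and midbrain against hindbrain gave 0.03 (adjusted p = 0.904, 95% confidence interval -0.35 to 0.41). Both calls were lost in Fmr1CRE mice alone (adjusted p = 0.0612 and 0.232), and that against midbrain without both mice numbered 3 (adjusted p = 0.0503). With summed reads the differences were -0.88 (SE 0.10) and -0.85 (SE 0.10), with adjusted p-values of 1.52e-06 and 1.8e-05.

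Of the 4 receptors, both that couple to Gq were far lower in hindbrain than in forebrain or midbrain, as was *Chrm4*, which couples to Gi and Go. *Chrm1*, the main muscarinic receptor of cortical and hippocampal pyramidal neurons, ran from 90.6 through a median of 123.8 to 130.5 CPM in forebrain, from 62.2 through 108.8 to 122.1 in midbrain and from 0.632 through 0.839 to 2.65 in hindbrain. It was 92.8-fold higher in forebrain than in hindbrain (log2 fold change 6.54, SE 0.32, adjusted p = 1.17e-10) and 76.7-fold higher in midbrain than in hindbrain (6.26, SE 0.31, adjusted p = 4.69e-10). Forebrain against midbrain gave 0.27 (SE 0.23, adjusted p = 0.453, 95% confidence interval -0.22 to 0.77). The lowest *Chrm1* levels of forebrain and of midbrain were both in Fmr1CRE replicate 1, whose libraries also had the lowest sums of cortex and hippocampus markers, 1012 and 603.7 CPM. The part of dissection in the *Chrm1* differences was not tested.

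*Chrm3*, the other Gq-coupled receptor of the 4, was still detected in every hindbrain library. It ran from 31.5 through a median of 39.3 to 44.7 CPM in forebrain, from 33.4 through 35.9 to 38.8 in midbrain and from 4.79 through 8.16 to 10.4 in hindbrain. Forebrain was 5.06-fold above hindbrain (log2 fold change 2.34, SE 0.13, adjusted p = 4.87e-10) and midbrain 4.64-fold (2.21, SE 0.13, adjusted p = 2.2e-09). Forebrain against midbrain gave 0.12 (adjusted p = 0.523), with a 95% confidence interval of -0.13 to 0.38.

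The Gi- and Go-coupled receptors went in opposite directions. *Chrm4*, a receptor of striatal neurons, ran from 11.8 through a median of 16.9 to 22.3 CPM in forebrain, from 5.10 through 7.66 to 12.2 in midbrain and from 0.533 through 0.840 to 1.14 in hindbrain. It was 2.09-fold higher in forebrain than in midbrain (log2 fold change 1.06, SE 0.21, adjusted p = 0.00247), 19.95-fold higher in forebrain than in hindbrain (4.32, SE 0.25, adjusted p = 9.83e-10) and 9.56-fold higher in midbrain than in hindbrain (3.26, SE 0.25, adjusted p = 4.47e-08). The difference between forebrain and midbrain was not called in Fmr1CRE mice alone (0.96, adjusted p = 0.117), and the forebrain and midbrain libraries overlapped, as the largest midbrain value, in Fmr1CRE replicate 2, exceeded the smallest forebrain value, in wild-type replicate 2. That midbrain library, also the lowest of midbrain in *Ache*, had the most striatal markers (478.2 CPM, against 156.6 to 244.2 in the other 5), the most choroid plexus markers (487.7 CPM) and the fewest midbrain markers (48.9 CPM) of its region. Striatal markers moved with *Chrm4* between regions, at 601.9 to 1604 CPM in forebrain, and the part of dissection in the *Chrm4* and *Ache* differences was not tested.

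*Chrm2*, which serves as an autoreceptor on cholinergic terminals, was the receptor with its lowest level in forebrain. It ran from 11.9 through a median of 14.9 to 17.9 CPM in forebrain, from 24.6 through 28.2 to 33.8 in midbrain and from 24.2 through 29.1 to 39.6 in hindbrain, and no forebrain library overlapped the others. Forebrain against hindbrain gave a log2 fold change of -1.05 (SE 0.14, adjusted p = 1.13e-05) and forebrain against midbrain -0.96 (SE 0.14, adjusted p = 0.000214), so that both other regions were about 2.07-fold and 1.94-fold above forebrain. Midbrain against hindbrain gave -0.09 (adjusted p = 0.609, 95% confidence interval -0.38 to 0.20).

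**Figure D3:**
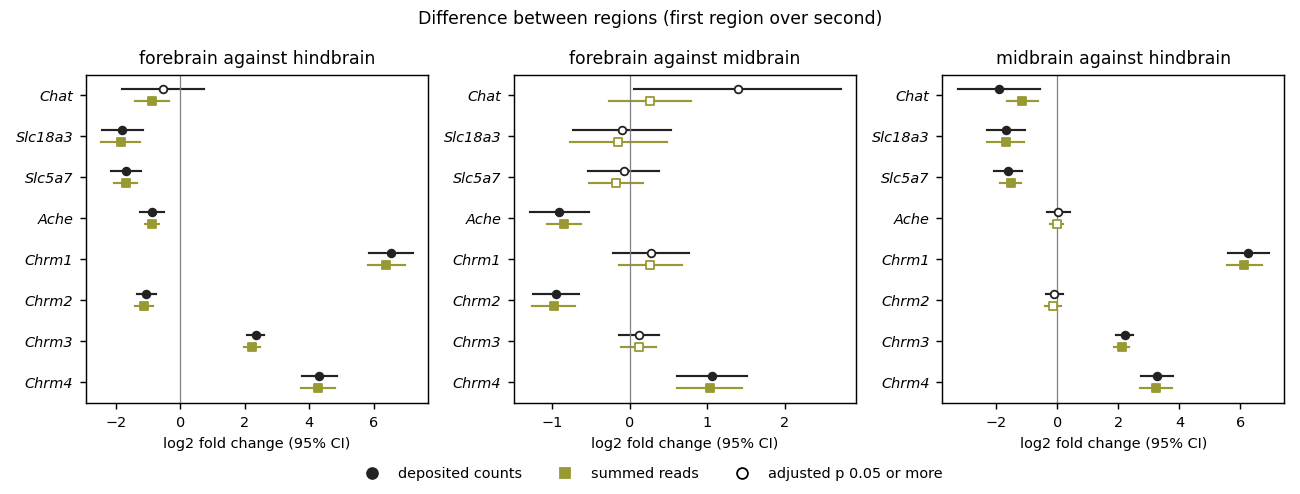
Log2 fold change of the first region over the second (horizontal axis, with 95% confidence intervals) for the 8 genes, from deposited counts (black circles) and summed reads (olive squares). Filled symbols passed an adjusted p of 0.05, and *Chat* in forebrain against hindbrain is filled only with reads, at -0.88.

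Forebrain against hindbrain called 7 of the 8 genes, 3 higher and 4 lower, where 51.7% of all genes tested were called, 26.4% higher and 25.3% lower. With summed reads all 8 were called, against 60.6% of all genes. Forebrain against midbrain called 3 of 8, 1 higher and 2 lower, against 19.3% of all genes (9.38% higher and 9.95% lower), and 3 with reads, against 28.1%. Midbrain against hindbrain called 6 of 8, 3 higher and 3 lower, against 49.1% (25.1% higher and 24.0% lower), and 6 with reads, against 58.3%. The median log2 fold change of the 8 genes was -0.71, 0.02 and -0.03 in these comparisons, and that of all genes tested was -0.01, 0.02 and -0.03. On the deposited scale the libraries of forebrain and hindbrain did not overlap for 7 of the 8 genes, all but *Chat*, against 27.7% of all genes. For forebrain and midbrain this held for *Chrm2* alone, against 10.5%. For midbrain and hindbrain it held for *Slc18a3*, *Slc5a7*, *Chrm1*, *Chrm3* and *Chrm4*, against 26.9%. On the read scale *Ache* in forebrain and midbrain and *Chat* in midbrain and hindbrain did not overlap either. No share of all genes was computed on that scale. These 3 comparisons share libraries.

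The two-sided exact sign permutation test over the 6 mice, which pairs the regions of a mouse, cannot go below p = 0.03125. The 7 called genes reached it in forebrain against hindbrain, as did *Chrm2* and *Chrm4* in forebrain against midbrain and *Slc18a3*, *Slc5a7*, *Chrm1*, *Chrm3* and *Chrm4* in midbrain against hindbrain. *Ache* in forebrain against midbrain gave an exact p of 0.0625, as 1 of 6 mice (Fmr1CRE replicate 2) went the other way, and 0.03125 with reads. *Chat* gave an exact p of 0.375 in forebrain against hindbrain, 0.34375 in forebrain against midbrain and 0.09375 in midbrain against hindbrain, and with reads 0.03125, 0.53125 and 0.03125.

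Levels of different genes were compared per kilobase of effective length, pooled over the libraries, and neighbours in the order are said to overlap where the ranges of mean ± SD meet. *Ache* was first in all 3 regions, at 35.2 ± 8.07 CPM per kilobase in forebrain, 66.5 ± 18.1 in midbrain and 64.6 ± 8.24 in hindbrain (SD, n = 6). In forebrain *Chrm1* (21.9), *Chrm4* (11.9) and *Chrm3* (11.1) followed, then *Chat* (4.36), *Chrm2* (3.44), *Slc5a7* (2.86) and *Slc18a3* (0.926), where *Chrm4* overlapped *Chrm3*, *Chat* overlapped *Chrm2* and *Chrm2* overlapped *Slc5a7*. In midbrain the order was *Chrm1* (18.1), *Chrm3* (10.2), *Chrm2* (6.66), *Chrm4* (5.72), *Slc5a7* (3.00), *Chat* (1.74) and *Slc18a3* (1.03), where *Chrm2* overlapped *Chrm4*, and *Chat* overlapped *Slc5a7* and *Slc18a3*. In hindbrain it was *Slc5a7* (9.13), *Chrm2* (7.10), *Chat* (6.87), *Slc18a3* (3.20) and *Chrm3* (2.21), each of which overlapped the next, and then *Chrm4* (0.592) and *Chrm1* (0.238). On the read scale, with the same length, *Chat* stood at 2.16 ± 0.788 CPM per kilobase in forebrain, 1.77 ± 0.345 in midbrain and 3.83 ± 0.966 in hindbrain (SD, n = 6). At that length it lay below *Chrm2* (3.42) and *Slc5a7* (2.79) in forebrain, where it overlapped *Slc5a7*. At the same length its rank in the other regions stayed as it was. It no longer overlapped *Chrm2* (7.26) in hindbrain or either neighbour in midbrain. The *Chat* length, 1790.9 bases, is an average lowered by the libraries with reads on Chat-202, while Chat-201 alone had 2728.8 to 2929.0 bases. These read-scale levels of *Chat* are therefore too high for reads on Chat-201. In hindbrain *Chat* stood at 6.86 CPM from reads and *Slc18a3* at 9.60. At the Chat-201 length *Chat* would therefore lie below *Slc18a3* (3.21 CPM per kilobase) there. The effective length of *Slc18a3*, 2989.2 bases, exceeds its annotated 2413 bases. With the length of the longest transcript in place of the effective length, 11 of 24 levels stayed within 1 SD, and *Chrm1* moved above *Ache* in forebrain.

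The 4 receptors together stood at 48.3 ± 4.21 CPM per kilobase in forebrain, 40.6 ± 6.26 in midbrain and 10.1 ± 2.13 in hindbrain (SD, n = 6). Of this sum *Chrm1* made up 45.3% ± 2.72 in forebrain, 44.0% ± 5.36 in midbrain and 2.23% ± 0.985 in hindbrain. *Chrm2* made up 7.11% ± 0.712, 16.9% ± 4.05 and 70.1% ± 2.13, and its hindbrain share lay between 67.7% and 73.1% in all 6 libraries. *Chrm3* kept a similar share, at 23.1% ± 3.38, 25.4% ± 3.07 and 21.7% ± 2.92. *Chrm4* held 24.5% ± 4.71, 13.8% ± 2.83 and 5.99% ± 1.69. The Gq-coupled pair thus held 68.4% ± 4.29 of the forebrain sum, 69.3% ± 3.20 of the midbrain sum and 23.9% ± 2.82 of the hindbrain sum, which became 67.9%, 68.6% and 24.2% with summed reads.

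Genes of like pattern were ranked by Pearson's r of log2 CPM with each of the 8 genes over the 18 libraries, among 16306 genes with a mean of at least 1 CPM. The libraries share regions and mice, so r mostly follows the regions. *Chrm1* was nearest to *Kcnf1* (0.997), *Icam5* (0.996) and *Kcnj4* (0.995), *Chrm3* to *Epha4* (0.989), *C1ql3* (0.989) and *Rprm* (0.988), and *Chrm4* to *Kcnip2* (0.991), *Grasp* (0.991) and *Plk2* (0.989). *Chrm2* was nearest to *Nkrf* (0.982), *Minar1* (0.976) and *Ankrd34b* (0.976). *Slc5a7* was nearest to *Slc39a12* (0.948), *Hsdl2* (0.945) and *Adipor2* (0.944), and *Slc18a3* to *Sv2c* (0.933), a synaptic vesicle glycoprotein gene, *Adipor2* (0.915) and *Prr18* (0.898). *Ache* was nearest to *Dbh* (0.892), the enzyme of noradrenaline synthesis, *Alox8* (0.885) and *Card10* (0.872). *Chat* had the weakest neighbours, *Ctdsp1* (0.812), *Adipor1* (0.807) and *Msn* (0.807), and with reads *Carhsp1* reached 0.906. With reads the gene nearest to *Slc18a3* was *Slc5a7* (0.941).

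Other genes of the pathway were taken from 6 lists, and their counts are read against the shares of all genes given above. Of the 16 nicotinic receptor subunits, which form acetylcholine-gated ion channels, 12 were tested. Most were higher in midbrain, with 8 lower in forebrain than in midbrain and 0 higher, and 7 higher in midbrain than in hindbrain and 0 lower. *Chrna6*, a subunit of dopaminergic neurons, stood at 6.18 CPM in midbrain, 0.582 in forebrain and 0.573 in hindbrain (log2 fold change -3.48, SE 0.53, adjusted p = 0.000312 for forebrain against midbrain, and 3.41, SE 0.52, adjusted p = 6.45e-05 for midbrain against hindbrain). *Chrnb3* stood at 1.39, 3.69 and 0.273 CPM in forebrain, midbrain and hindbrain, with -1.40 (adjusted p = 0.0075) for forebrain against midbrain and 3.81 (adjusted p = 1.07e-06) for midbrain against hindbrain. Forebrain against hindbrain called 4 higher, among them *Chrnb3* (2.40, adjusted p = 8.41e-05) and *Chrna5* (1.69, adjusted p = 1.67e-05), and 1 lower, *Chrna2*. The list's median log2 fold change was 0.05, -0.67 and 0.83 in forebrain against hindbrain, forebrain against midbrain and midbrain against hindbrain. Thalamus markers summed to 140.4 to 264.6 CPM in midbrain, 75.1 to 193.5 in forebrain and 85.9 to 116.2 in hindbrain, so that midbrain and forebrain overlapped. The part of dissection in the differences of the nicotinic subunits was not tested.

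Signal transducers of the muscarinic receptors were mostly higher in forebrain and midbrain than in hindbrain. Of 15 tested, 12 were higher in forebrain than in hindbrain and 2 lower, and 12 were higher in midbrain than in hindbrain and 1 lower, while forebrain against midbrain gave 2 higher and 1 lower. *Kcnq5*, a subunit of the M-type potassium channel, changed by 3.02 (SE 0.15, adjusted p = 9.83e-11) and *Rgs4*, which speeds the turn-off of Gq and Gi, by 2.46 (SE 0.10, adjusted p = 1.81e-11) in forebrain against hindbrain. *Kcnj6*, a G-protein-gated potassium channel, was 2.17 higher on the log2 scale in midbrain than in hindbrain (SE 0.17, adjusted p = 6.65e-08). *Plcb4*, a phospholipase C with high levels in cerebellum, went the other way, at -1.10 (SE 0.14, adjusted p = 4.77e-06) in forebrain against hindbrain, as did *Gnai3* at -0.28 (SE 0.07, adjusted p = 0.0032). The list's medians were 1.07, 0.01 and 0.89.

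Cholinesterase partners and genes of choline handling numbered 9, of which 0 were higher and 6 lower in forebrain than in hindbrain, 0 and 3 in forebrain against midbrain, and 1 and 4 in midbrain against hindbrain. *Colq*, which anchors acetylcholinesterase, stood at 1.08 CPM in forebrain, 1.39 in midbrain and 3.05 in hindbrain (-1.50, SE 0.23, adjusted p = 4.89e-05 for forebrain against hindbrain), and butyrylcholinesterase (*Bche*) at 7.14, 10.3 and 14.1 CPM (-0.98, SE 0.17, adjusted p = 0.000147). The last muscarinic receptor, *Chrm5*, which also couples to Gq, was highest in midbrain, at 2.07 CPM against 0.753 in forebrain and 0.434 in hindbrain, with 2.24 (SE 0.31, adjusted p = 2.4e-05) for midbrain against hindbrain. The list's medians were -0.46, -0.26 and -0.36. Of 7 nicotinic receptor chaperones and Ly6 proteins, 2 were higher and 1 lower in forebrain than in hindbrain, 0 passed in forebrain against midbrain, and 2 were higher in midbrain than in hindbrain, led by *Ly6h* (1.41, SE 0.09, adjusted p = 4.75e-09) and *Lypd1* (1.19, SE 0.17, adjusted p = 2.87e-05), with medians of -0.06, -0.25 and 0.15. In that comparison without a call, edgeR's unadjusted p fell under 0.05 for 4 of the 7 genes, against 6632 of all 20363 genes tested. Summed reads called 1 of the 7, against 28.1% of all genes.

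Transcription factors and trophic receptors of forebrain cholinergic neurons numbered 8, with 3 higher and 2 lower in forebrain than in hindbrain, 4 and 1 in forebrain against midbrain, and 2 and 3 in midbrain against hindbrain. *Isl1* stood at 6.50 CPM in forebrain, 1.84 in midbrain and 1.10 in hindbrain (2.56, SE 0.46, adjusted p = 0.000206 for forebrain against hindbrain), and *Nkx2-1* at 2.80, 1.59 and 0.226 CPM (3.62, SE 0.40, adjusted p = 1.36e-06). *Gbx1* was lowest in midbrain, at 0.303 CPM against 1.79 in forebrain and 2.34 in hindbrain, and *Zic4* highest in hindbrain, at 25.2 CPM against 9.86 in forebrain. The list's medians were 0.20, 1.25 and 0.14.

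Brainstem motor neuron genes were higher in hindbrain. Of 9 genes 8 were tested, and 8 were lower in forebrain than in hindbrain, 6 lower in forebrain than in midbrain and 7 lower in midbrain than in hindbrain, with 0 higher. *Calca* stood at 1.01, 3.30 and 14.5 CPM in forebrain, midbrain and hindbrain, and *Prph* at 1.95, 6.08 and 25.4 CPM. *Calcb* changed by -4.69 on the log2 scale in forebrain against hindbrain (SE 0.36, adjusted p = 1.85e-08). The list's medians of fitted values were -4.27, -1.87 and -2.27, and with the genes at 0 in forebrain set to their bounds, taken at 3 counts per library, the first 2 were -3.84 and -1.87. The gene not called in midbrain against hindbrain was *Ret*, at 37.3 CPM in midbrain and 37.2 in hindbrain. Like *Slc18a3* and *Slc5a7*, the sums of 3 marker lists were higher in every hindbrain library than in all others. Hindbrain and cerebellum markers reached 469.5 to 716.2 CPM in hindbrain and at most 212.0 elsewhere. Oligodendrocyte markers summed to 29540 to 41480 CPM in hindbrain, 16980 to 20200 in midbrain and 12880 to 16420 in forebrain. Choroid plexus markers summed to 915.2 to 3251, 172.8 to 487.7 and 367.1 to 869.9 CPM. All 6 markers of each of the last 2 lists were detected in every region. The part of tissue make-up in the differences of *Slc18a3*, *Slc5a7* and the motor neuron genes was not tested.

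**Figure D4:**
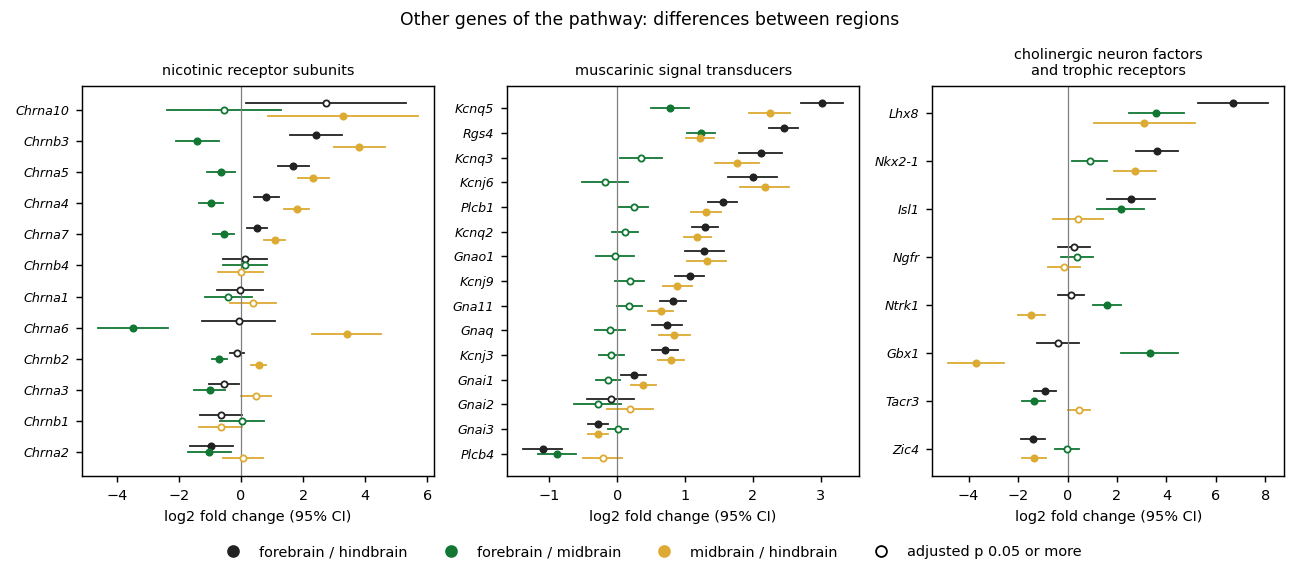
Log2 fold changes between regions (horizontal axis, with 95% confidence intervals) of nicotinic receptor subunits, muscarinic signal transducers, and factors and trophic receptors of forebrain cholinergic neurons, for forebrain over hindbrain (black), forebrain over midbrain (green) and midbrain over hindbrain (yellow). Filled points passed an adjusted p of 0.05, and *Chrna6* lies at -3.48 and 3.41 in the comparisons with midbrain and near 0 in forebrain over hindbrain.

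The question of the knock-in, whether the altered element changes expression in the brain, was asked within each region with 3 mice against 3. None of the 8 genes passed the adjusted threshold in any region, where edgeR called 0% of 18467 genes in forebrain, 0.00543% of 18400 (1 gene) in midbrain and 0% of 19112 in hindbrain. At an unadjusted p under 0.05 the 8 genes gave 0 in forebrain, 1 in midbrain and 1 in hindbrain, while 5.44%, 6.16% and 5.09% of all genes did so. DESeq2 called 0 of the 8 genes too, and 31, 62 and 59 of all genes. The same held for the 6 lists of other pathway genes, of which 0 members passed in any region.

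*Slc18a3* was lower in Fmr1CRE midbrain, at 2.36, 1.71 and 2.77 CPM in replicates 1 to 3, than in wild-type midbrain, at 4.23, 4.20 and 3.12. The groups did not overlap, which was so for 11.3% of all genes in midbrain. In the same libraries hindbrain and cerebellum markers summed to 81.6, 178.5 and 108.5 CPM in Fmr1CRE mice and to 143.1, 208.8 and 212.0 in wild-type mice. Striatal markers summed to 220.6, 478.2 and 244.2 against 189.5, 208.2 and 156.6 CPM, also without overlap. The part of dissection in the *Slc18a3* difference was not tested. The log2 fold change was -0.75 (SE 0.24, 95% confidence interval -1.31 to -0.19), with an unadjusted p of 0.0152 and an adjusted p of 0.772 by edgeR's quasi-likelihood test. With reads it was -0.73 (unadjusted p = 0.00741, adjusted p = 0.766). The two-sided exact permutation test gave p = 0.1, the smallest that 3 against 3 allows. *Slc5a7* in midbrain gave -0.17 (adjusted p = 0.885 by edgeR) from deposited counts, where its groups overlapped. With reads it gave -0.29 (unadjusted p = 0.0194, adjusted p = 0.778 by edgeR), and its groups did not overlap. The share of all genes without overlap was not computed on the read scale.

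*Chat* in hindbrain stood at 17.7, 20.5 and 13.9 CPM in Fmr1CRE mice and at 3.41, 4.59 and 13.8 in wild-type mice on the deposited scale, again without overlap, though the nearest 2 libraries stood at 13.86 and 13.84 CPM. Groups did not overlap for 10.9% of all genes in hindbrain. On the read scale the same libraries held 5.35, 9.92 and 7.25 CPM against 5.10, 6.94 and 6.62, and they overlapped. The log2 fold change was 1.25 (SE 0.48, unadjusted p = 0.0318, adjusted p = 0.879) from deposited counts and 0.23 (SE 0.22, unadjusted p = 0.325, adjusted p = 0.88) from reads. All 3 Fmr1CRE libraries and 1 of 3 wild-type libraries had reads on Chat-202. The deposited value ranged from 0.92 to 2.10 when 1 mouse was left out, the upper end without wild-type replicate 3.

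In forebrain no gene of the 8 had groups that did not overlap, against 10.3% of all genes. The lowest values of *Chat* (0.829 CPM), *Slc18a3* (0.671), *Slc5a7* (4.58), *Chrm1* (90.6) and *Chrm2* (11.9) were all in Fmr1CRE replicate 1, the library with the lowest striatal and cortical marker sums. The part of dissection in these values was not tested. The estimates were -0.25 for *Chat* (95% confidence interval -2.45 to 1.95), -0.26 for *Slc18a3* (-1.51 to 0.98) and -0.39 for *Slc5a7* (-1.10 to 0.31), so that a 2-fold fall lies within all 3 intervals and a 2-fold rise within that of *Chat*. Without both mice numbered 3 they were -1.0, -0.66 and -0.26, with adjusted p-values of 0.65, 0.698 and 0.769 by edgeR. Those of the receptors were narrower, with *Chrm1* at -0.13 (-0.43 to 0.17), *Chrm2* at -0.04 (-0.42 to 0.34), *Chrm3* at -0.01 (-0.33 to 0.32) and *Chrm4* at 0.14 (-0.40 to 0.68). *Ache* gave 0.28 (-0.21 to 0.76). Without both mice numbered 3 these 5 ranged from -0.26 for *Chrm2* to 0.34 for *Chrm4*.

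In midbrain *Ache* gave -0.35 (-0.995 to 0.29), *Chrm1* -0.03 (-0.64 to 0.57), *Chrm2* -0.04 (-0.36 to 0.28), *Chrm3* -0.05 (-0.26 to 0.16) and *Chrm4* 0.32 (-0.40 to 1.04). In hindbrain *Slc18a3* gave -0.07 (-0.64 to 0.50), *Slc5a7* 0.11 (-0.59 to 0.80), *Ache* -0.06 (-0.39 to 0.27), *Chrm2* 0.05 (-0.43 to 0.53) and *Chrm3* 0.40 (-0.15 to 0.96). *Chrm1* and *Chrm4*, at 15 counts or more in every hindbrain library, gave -0.34 (-1.70 to 1.02) and 0.09 (-0.76 to 0.95) there, with correspondingly wide intervals. The test of whether the genotype difference itself differed between regions called 0% of 20363 genes and 0 of the 8, with 7.49% of all genes and 0 of the 8 at an unadjusted p under 0.05, while DESeq2 called 52 genes. The lowest adjusted p of any of the 8 genes in that test was 0.14 over all settings tried.

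**Figure D5:**
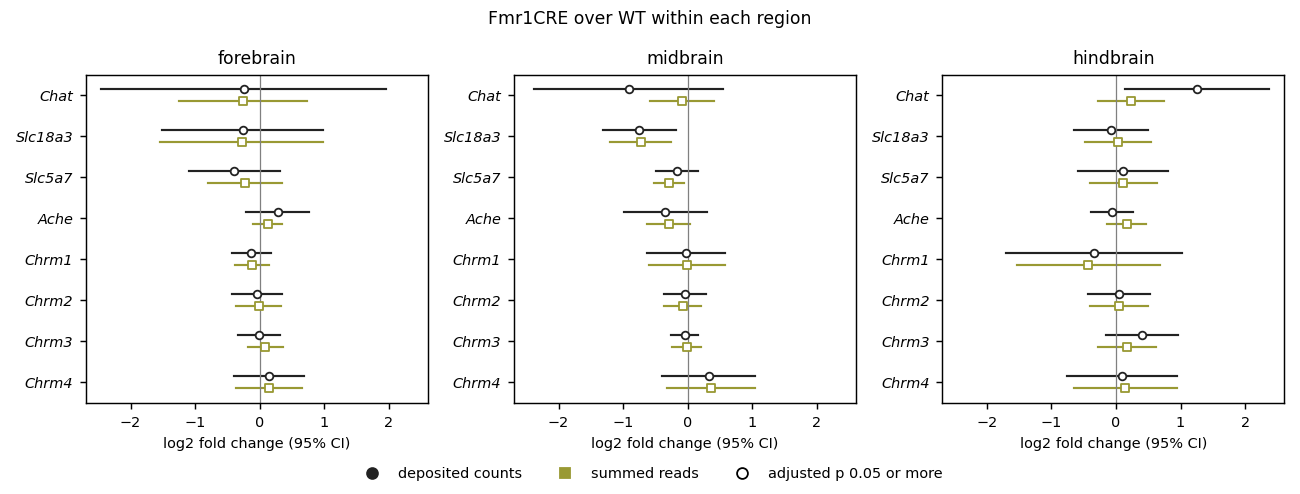
Log2 fold change of Fmr1CRE over wild-type (WT) mice within forebrain, midbrain and hindbrain (horizontal axis, with 95% confidence intervals) for the 8 genes, from deposited counts (black circles) and summed reads (olive squares). All symbols are open, as none passed an adjusted p of 0.05, and the *Chat* estimate in hindbrain moves from 1.25 to 0.23 between the scales.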

How the data were processed

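Poly(A) RNA of 18 brain libraries was sequenced by the study as single-end 50-base reads. The submitters' processing notes name Salmon 0.14.0, DESeq2 1.30.1 and mm10, and the study describes the bcbio_nextgen pipeline with transcript estimates imported per gene. The authors deposited gene counts, which are estimated counts: salmon abundance summed per gene, times mean effective length, scaled to each library total and rounded, with no normalization for depth. They were compared with the deposited transcript estimates (read numbers, which are estimated counts, and abundance in TPM, by the authors' salmon), whose gene sums of reads differed from the deposited counts by 3.85% to 6.48%. A deposited table of variance-stabilized values was not used here. Unused columns of measured values numbered 0. Of 53468 identifiers, 53431 had a symbol in GENCODE M21, and the 37 without one held 0.0151% of counts. The 8 genes and all lists were chosen with earlier results of these data known.

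Totals per library ran from 22455512 to 28061185 counts. Counts were fitted in edgeR 4.0.16 (R 4.3.3) with TMM scaling, the default filter on low counts and the robust quasi-likelihood test, Benjamini-Hochberg adjusted over all genes at 0.05. Regions were compared over 6 groups of region and genotype, and genotypes within a region. These region tests take the 3 libraries of a mouse as independent. Intervals are at 95%. Exact permutation tests used log2 CPM (prior count 2). Those of genotype used SciPy 1.17.1, and those of region went through every pattern of signs over the 6 mice directly. The genes named were all 8, the 3 nearest by Pearson's r to each, and from each list up to 2 per direction with the largest change among called genes with a mean of at least 1 CPM. Other list genes named beside them (*Chrna2*, *Calca*, *Prph*, *Hoxc4*) were chosen after their values were seen. A gene that this rule selects is not reported here. The fits were also run on simulated counts with the same spread for every gene, where 200 genes, none of low count, were changed 2-fold. Depending on the comparison, 192 to 200 of these were recovered. The simulation does not cover genes of low count or wide spread.

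Alternatives were DESeq2 1.42.0, its size factors, total counts alone, no filter, at least 10 counts in every library, the mouse or the replicate number as a block, 1 genotype alone, 1 fit of 18 libraries, each mouse left out, both mice numbered 3 left out, and, chosen after the data were seen, reads summed per gene. The regions of 1 mouse come from the same animal by the labels, and their deviations from the group mean correlated between -0.17 and 0.178. Sequencing was in pools whose members are not named, so pools were not tested. The replicates are separate mice of 1 litter.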

Additional observations from a re-analysis of the deposited data

Results flagged for a closer look

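In each region the 6 libraries of each of the 8 genes were examined for a lone library far from the rest, by Dixon's test of the gap to the nearest library against the whole range. This flagged 2 of 24 groups, and chance flags about 1 in 20. The level of *Chat* in midbrain was highest in wild-type replicate 2, at 8.73 CPM, where the other 5 libraries lay between 1.44 and 2.53 CPM. It is the only midbrain library with reads on the 220-base model Chat-202, and on the read scale it stood at 4.24 CPM against 2.33 to 3.23 in the others. The level of *Chrm1* in forebrain was lowest in Fmr1CRE replicate 1, at 90.6 CPM, where the other 5 lay between 116.4 and 130.5 CPM. That library had the lowest forebrain sums of cortex and hippocampus markers (1012 CPM) and of striatal markers (601.9 CPM), whose part in the value was not tested.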

How the results depend on the processing

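Calls of *Slc18a3*, *Slc5a7*, *Chrm1*, *Chrm2* and *Chrm3* between regions held under every alternative run, and 0 of the 8 genes passed for genotype or the interaction under any. *Chat*, *Ache* and *Chrm4* changed calls as given in the report. The mouse as a replicate block changed no call of the 8 genes (7, 3 and 6 called, and, for Chat, midbrain against hindbrain, -1.98 with adjusted p = 0.0476). The replicate number as a block, which does not pair mice by its own correlations (-0.12 to 0.069 over 9 pairs), left 0, 1 and 0 genes called for genotype in forebrain, midbrain and hindbrain.

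In forebrain against midbrain Fmr1CRE mice alone called 1 of the 8 genes, without *Ache* and *Chrm4*. Over all genes Fmr1CRE mice alone called 6183 in forebrain against hindbrain, 524 in forebrain against midbrain and 4857 in midbrain against hindbrain, and wild-type mice alone 1726 in forebrain against midbrain, with fewer samples in each. Leaving out 1 mouse gave 2254 to 4004 genes in forebrain against midbrain, lowest without wild-type replicate 1, and 2342 without wild-type replicate 2 and 2587 without Fmr1CRE replicate 1. Total counts alone gave 4340 higher and 6805 lower genes in forebrain against hindbrain (5381 and 5151 in the report's fit), with a median of all genes of -0.15, and 1384 and 2917 in forebrain against midbrain (1911 and 2027), and no call of the 8 genes changed with it.

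For genotype over all genes, forebrain gave 1 with no filter, 31 with DESeq2 and 1 in 1 fit of all libraries. Midbrain gave 2 with total counts, 8 with no filter, 0 at a minimum of 10 counts, 62 with DESeq2, 0 in 1 fit, 3 without both mice numbered 3, 3 with summed reads and 0 to 4 with 1 mouse left out. Hindbrain gave 9, 59, 1, 1 and 1 with no filter, DESeq2, 1 fit, both mice numbered 3 left out and reads, and 0 to 6 with 1 mouse left out. The interaction gave 52 with DESeq2, 112 without both mice numbered 3 and 0 to 4 with 1 mouse left out. The causes were not tested.

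Signs turned only among values that did not pass. Between regions these were *Chat* in forebrain against hindbrain in wild-type mice (0.22), *Slc18a3* (0.13, Fmr1CRE mice) and *Slc5a7* (0.049, wild-type mice) in forebrain against midbrain, *Chrm2* in midbrain against hindbrain without both mice numbered 3 (0.044), and *Ache* in midbrain against hindbrain with total counts (-0.046), a minimum of 10 counts (-0.015), Fmr1CRE mice (-0.16), both mice numbered 3 left out (-0.017) and reads (-0.022). For genotype in hindbrain, without both mice numbered 3, they were *Slc18a3* (0.055), *Ache* (0.057), *Chrm1* (0.70) and *Chrm4* (-0.23), and with reads *Slc18a3* (0.033) and *Ache* (0.17). *Chrm3* in forebrain gave 0.026 with total counts, 0.0 at 10 counts and 0.087 with reads.

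With 1 mouse left out, the ranges of values that turned sign between regions were -0.28 to 0.13 for *Slc18a3* and -0.22 to 0.014 for *Slc5a7* in forebrain against midbrain, and -0.10 to 0.23 for *Ache* and -0.22 to 0.052 for *Chrm2* in midbrain against hindbrain. For genotype they were, in forebrain, -1.61 to 0.37 for *Chat*, -0.67 to 0.18 for *Slc18a3*, -0.19 to 0.07 for *Chrm2*, -0.11 to 0.12 for *Chrm3* and -0.084 to 0.27 for *Chrm4*. In midbrain they were -1.33 to 0.29 for *Chat*, -0.24 to 0.20 for *Chrm1* and -0.18 to 0.058 for *Chrm2*. In hindbrain they were -0.39 to 0.081 for *Slc18a3*, -0.066 to 0.51 for *Slc5a7*, -0.18 to 0.01 for *Ache*, -0.97 to 0.42 for *Chrm1*, -0.10 to 0.28 for *Chrm2* and -0.14 to 0.35 for *Chrm4*. With the longest transcript as length, 11 of 24 levels stayed within 1 SD. *Chrm1* and *Chrm4* in hindbrain rest on as few as 15 counts and *Slc18a3* in forebrain on 17, which limits their precision, and with 3 mice per genotype the spread between mice limits the rest.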
